A study of Mus musculus with 2 samples.

Results

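Mecom, Prdm16, Hlf and Fgd5 are 4 genes known for marking hematopoietic stem cells (HSCs) or for keeping their capacity to self-renew, and their chromatin accessibility was compared between young and aged HSCs. They were chosen by name, as 4 of the 21938 protein-coding genes on the assembled chromosomes, and all 4 were found in the mm10 annotation. Bone marrow of C57BL/6 mice, female per the study's methods, was the source of the HSCs, which were sorted as cells that were Sca-1+, c-kit+ and CD150+, and Lin-, IL-7-, CD34-, CD48- and Flt3-. The young HSCs came from mice 10 weeks old and the aged HSCs from mice 20 months old, and no engineered allele or treatment is named for either group. Single-cell ATAC-seq, in which a transposase cuts open chromatin and each cut fragment carries the barcode of its nucleus, was run as 1 library for each age. How many mice each library pooled is not given in the sources used here, so the spread between animals is not known, and no test of age was made. Every interval given here is an exact binomial 95% interval that covers counting error only.

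Mecom encodes a zinc finger transcription factor with a long form, MDS1-EVI1, that begins with a PR domain, and a short form, EVI1, that is read from a start inside the gene and lacks it. Prdm16 encodes the closest relative of the long form, and both factors are required for a normal pool of HSCs in mice. Hlf encodes a transcription factor of the PAR bZIP family that binds DNA as a dimer and supports HSC quiescence. Fgd5 encodes a guanine nucleotide exchange factor for the small GTPase Cdc42, is best known in endothelial cells, and is used as a reporter gene for HSCs.

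Barcodes called as cells by the authors' pipeline with 3000 to 20000 fragments in its peaks were kept, which left 4887 of 5028 young and 3405 of 3694 aged cells. They held 50069575 young and 38663214 aged unique fragments, with a median of 9890 per young and 11020 per aged cell, and 26 kept barcodes occurred in both libraries. Counts were put on a per-million scale by the fragments of each library in peaks (FPM), the peaks being 166209 regions called on these cells in both libraries. They held 69.25% of young and 67.7% of aged fragments. Short fragments, here those shorter than the DNA wrapped by 1 nucleosome, made up 59.8% of young and 55.0% of aged fragments, and cells marked as doublets, which were kept, made up 4.42% of young and 6.725% of aged cells. All 8 promoters of HSC markers held at least 100 fragments over both libraries, with a median of 16.1 FPM in young and 16.8 FPM in aged HSCs. Of 4 megakaryocyte markers, Pf4, Gp1ba and Gp9 were open at 29.0 to 41.5 FPM in young HSCs, while Ppbp held 2.19 FPM in young and 2.37 FPM in aged HSCs. The promoters of the list had medians of 33.3 and 31.6 FPM, and summed to 110.3 FPM in young and 104.7 FPM in aged HSCs. The other lists were lower, with median promoter levels in young and aged HSCs of 4.05 and 3.76 FPM over 4 erythroid markers, 1.59 and 1.80 FPM over 5 granulocyte and monocyte markers, 2.54 and 2.03 FPM over 5 B cell markers and 0.721 and 0.440 FPM over 4 T and NK cell markers. The median over 4 endothelial and stromal markers was 13.8 and 14.2 FPM, with Cdh5 at 1.96 and 1.22 FPM. Among these marker promoters, Elane was past 1.5-fold higher in aged HSCs, and Mpo and Cdh5 were among those past 1.5-fold lower. The promoters of 3 mast cell and basophil markers summed to 7.79 FPM in young and 11.2 FPM in aged HSCs. The part of these markers in the results below was not tested.

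The promoters of Prdm16, Hlf and Fgd5, taken as 1 kb on either side of the annotated start, held nearly the same scaled signal at both ages. At the Prdm16 promoter (chr4:154635873-154637873, ENSMUSG00000039410.16, minus strand) 1179 young and 928 aged fragments were counted, or 34.0 and 35.5 FPM. The log2 ratio of aged over young, with 1 fragment added to each count, was 0.06, with an interval from -0.06 to 0.19. The Hlf promoter (chr11:90389895-90391895, ENSMUSG00000003949.16, minus strand) held 1234 young and 881 aged fragments, or 35.6 and 33.7 FPM, a log2 ratio of -0.08 with an interval from -0.21 to 0.05. The Fgd5 promoter (chr6:91977878-91979878, ENSMUSG00000034037.14, plus strand) held 777 young and 568 aged fragments, or 22.4 and 21.7 FPM, a log2 ratio of -0.05 with an interval from -0.20 to 0.11. All 3 intervals included 0. Of 15024 promoters with at least 100 fragments, 3.37% were at least 1.5-fold higher and 0.586% at least 1.5-fold lower in aged HSCs, and none of the promoters of Prdm16, Hlf and Fgd5 was past either limit. By level they stood at the 63.2, 63.0 and 40.0 percentile of these promoters, in the middle of the range.

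In Mecom (ENSMUSG00000027684.16, chr3:29951296-30548008, minus strand) the open start was not the outermost one. Its outermost annotated start, at 30548008, belongs to 1 transcript of the nonsense-mediated decay class, and the 2 kb around it held only 18 young and 14 aged fragments, under the minimum of 100. With 5 kb on either side of this start, 208 young and 125 aged fragments were counted, a log2 ratio of -0.32 with an interval from -0.66 to -0.0016. The start taken here as that of the long form, 38.2 kb further into the gene at 30509822, was the most open, with 1193 young and 857 aged fragments, or 34.4 and 32.8 FPM. Its log2 ratio was -0.07, with an interval from -0.20 to 0.06. The start at 30013505, taken here as that of the short form, was open at a lower level, with 395 young and 255 aged fragments (11.4 and 9.75 FPM), and a log2 ratio of -0.22 with an interval from -0.46 to 0.0056. The start of 1 transcript at 30011439, just downstream, differed in the other direction, with 277 young and 261 aged fragments (7.99 and 9.97 FPM), a log2 ratio of 0.32 with an interval from 0.07 to 0.57. The start at 29997702 held 127 young and 114 aged fragments, the start at 30140423 held 48 and 37, and that at 30238319 held 25 and 23. By level the long-form promoter stood at the 61.0 percentile of all tested promoters, near Prdm16 and Hlf, and the short-form promoter at the 19.3 percentile.

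**Figure D1:**
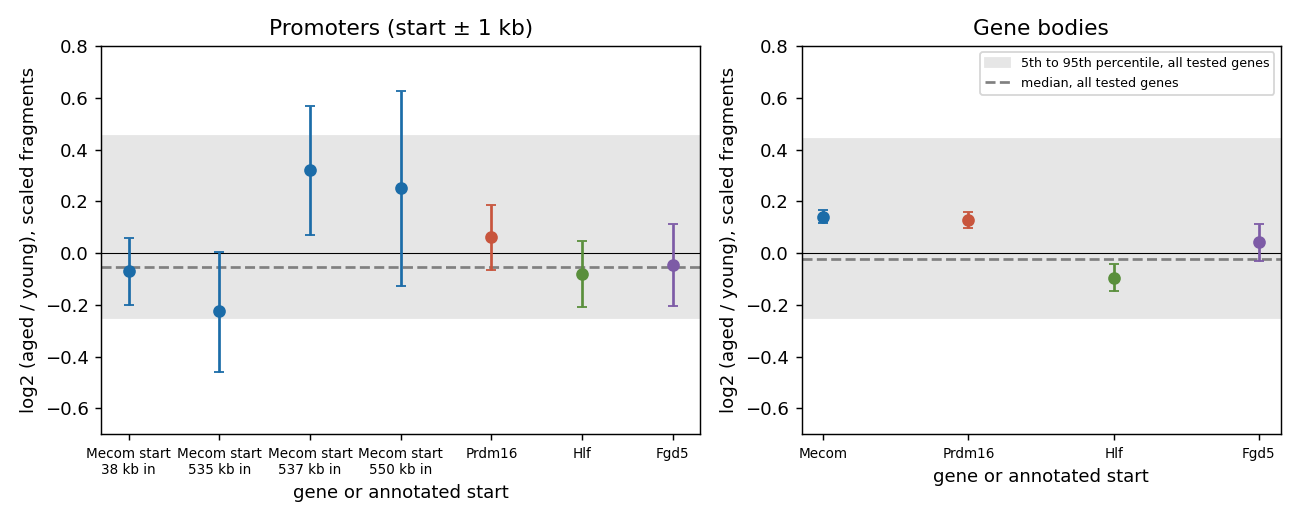
Log2 ratio of aged over young scaled fragments at annotated starts with at least 100 fragments (left, 1 kb on either side) and over gene bodies (right). Points are single libraries compared with each other, bars are exact binomial 95% intervals for counting error, the grey band spans the 5th to the 95th percentile of all tested genes, and the dashed line is their median. All points lie inside the band. Intervals lie wholly above 0 at the Mecom start 537 kb into the gene (0.32) and over the Mecom and Prdm16 bodies, and wholly below 0 over the Hlf body.

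Over gene bodies, Mecom and Prdm16 held slightly more scaled signal in aged HSCs and Hlf slightly less. The Mecom body (596.7 kb) held 27426 young and 22820 aged fragments, or 1.33 and 1.46 FPM per kb, a log2 ratio of 0.14 with an interval from 0.12 to 0.17. The Prdm16 body (chr4:154316125-154636873) held 19047 young and 15708 aged fragments, or 1.71 and 1.87 FPM per kb, a log2 ratio of 0.13 with an interval from 0.10 to 0.16. The Hlf body (chr11:90336536-90390895) held 7034 young and 4970 aged fragments, or 3.73 and 3.49 FPM per kb, a log2 ratio of -0.09 with an interval from -0.15 to -0.04, which included 0 after thinning (-0.063, -0.15 to 0.02). The Fgd5 body (chr6:91978878-92076004) held 3597 young and 2795 aged fragments, or 1.07 and 1.10 FPM per kb, a log2 ratio of 0.04 with an interval from -0.03 to 0.11. The Fgd5 interval lay just above 0 without marked doublets (a ratio of 0.08), with each cut site counted (0.06) and with barcodes not called as cells added (0.07). Per kb, Hlf was the most accessible of the 4 at both ages, followed by Prdm16, Mecom and Fgd5, and Hlf stood at the 82.9 percentile of all gene bodies by this level. The background over 17692 gene bodies was 2.95% at least 1.5-fold higher and 0.475% at least 1.5-fold lower in aged HSCs, and none of the 4 bodies was past either limit. The ratios of Mecom and Prdm16 stood at the 80.2 and 78.8 percentile of all gene bodies, that of Fgd5 at the 65.5 and that of Hlf at the 28.9 percentile. The middle of the distribution of all gene bodies, from the 5th to the 95th percentile, ran from -0.25 to 0.44 around a median of -0.02, and held all 4.

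Within Mecom the ratio was nearest to 0 before the long-form start. The 38.2 kb from the outermost start to the long-form start held 2527 young and 1938 aged fragments, with a log2 ratio of 0.02 and an interval from -0.06 to 0.11. The 496.3 kb between the long-form and the short-form starts held 22082 young and 18511 aged fragments, with a ratio of 0.15 and an interval from 0.12 to 0.18. The 62.2 kb from the short-form start to the 3′ end held 2911 young and 2445 aged fragments, with a ratio of 0.15 and an interval from 0.08 to 0.23. Gene bodies without the peaks in them gave ratios of 0.20 for Mecom, 0.21 for Prdm16 and 0.16 for Fgd5, each with an interval above 0, and -0.11 for Hlf. The median of all gene bodies without their peaks was 0.04. With short fragments alone the gene body ratios were lower, at 0.088 for Mecom, 0.075 for Prdm16, -0.064 for Fgd5 and -0.12 for Hlf. The median of all gene bodies was lower too, at -0.042 in place of -0.022. The aged share of short fragments in the Mecom body was 50.3% against 55.6% in the young library. Over all tested gene bodies these shares were 54.4% and 59.1%. The part of fragment length in the gene body ratios was not tested.

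Among the promoters of Prdm16, Hlf and Fgd5, fragment length differed most at Fgd5. Of its fragments 58.2% (54.6 to 61.7) were short in young and 44.5% (40.4 to 48.7) in aged HSCs, 452 of 777 and 253 of 568. Over all tested promoters the shares were 67.8% and 64.2%, at the Hlf promoter 75.5% and 73.2%, and at the Prdm16 promoter 64.1% and 61.5%. Counted with such fragments alone, the Fgd5 promoter had a log2 ratio of -0.34 with an interval from -0.57 to -0.12, in place of -0.05.

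The search for single elements used 500-bp bins over each gene with 100 kb on either side, and kept bins with at least 100 fragments over both libraries. Over the autosomes 178464 bins were kept, of which 9.08% were at least 1.5-fold higher in aged HSCs (gained) and 2.92% at least 1.5-fold lower (lost). The 4 windows held 404 such bins, with 49 gained (12.1%) and 5 lost (1.24%). Of the Prdm16 bins, 22 of 129 (17.1%) were gained and 1 was lost. Mecom had 20 gained of 156 (12.8%) and 2 lost, Hlf 4 of 83 (4.82%) and 1 lost, and Fgd5 3 of 36 (8.33%) and 1 lost. The median log2 ratio was 0.20 in the Prdm16 window, 0.13 in the Mecom window, 0.02 in the Hlf window and -0.04 in the Fgd5 window, against 0.04 over all bins. The shares of gained bins of Prdm16 and, by less, of Mecom were above the background. That of Hlf was below it and that of Fgd5 near it, but with 4 and 3 gained bins these are too few to be read against it. Within the ranges of fragment number given below, the shares of Mecom were nearer to the background. Lost bins were too few in any window to be read against it. Some gained bins adjoin, with runs of 5 and of 3 in Prdm16, and a fragment with its ends in 2 bins counts in both, so bins are not separate events. After each cell was thinned to 3000 fragments in peaks, which left 148 bins at the minimum, the order of the genes turned, with 2 gained and 2 lost in Prdm16, 7 gained and 1 lost in Mecom and none in Hlf and Fgd5. After thinning, gained bins made up 6.08% in the windows and 5.11% over the autosomes. With a limit of 2-fold in place of 1.5-fold, 10 bins of the windows were higher (2.48%), against 2.62% over the autosomes. With no minimum of fragments the direction turned, with 26.4% of bins gained in the windows and 32.2% over the autosomes, and with bins of 1000 bp the shares were 10.1% and 9.6%.

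By their sum over both libraries, the gained bins were weakly open ones. The minimum of 100 was set on that sum, so a weak bin could reach it through the library in which it was higher. This holds for the windows and for the autosomes. Of the 49, 36 had 100 to under 200 fragments, 13 had 200 to under 500, and none of the 50 bins with 500 fragments or more was gained or lost. The same held over the autosomes, where 15.2% of bins with 100 to under 200 fragments, 7.06% with 200 to under 500 and 1.18% with 500 or more were gained. Within the same ranges Prdm16 had 16 of 61 bins (26.2%) gained at 100 to under 200 fragments and 6 of 51 (11.8%) at 200 to under 500. Mecom had 14 of 76 (18.4%) and 6 of 62 (9.68%), Hlf 4 of 50 (8.0%) and none of 25, and Fgd5 2 of 17 (11.8%) and 1 of 12 (8.33%). The median GC content of the 49 gained bins was 48.6%, and 38 of them overlapped a peak (77.6%), against 49.0% and 273 of 350 (78.0%) among bins that were neither gained nor lost.

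**Figure D2:**
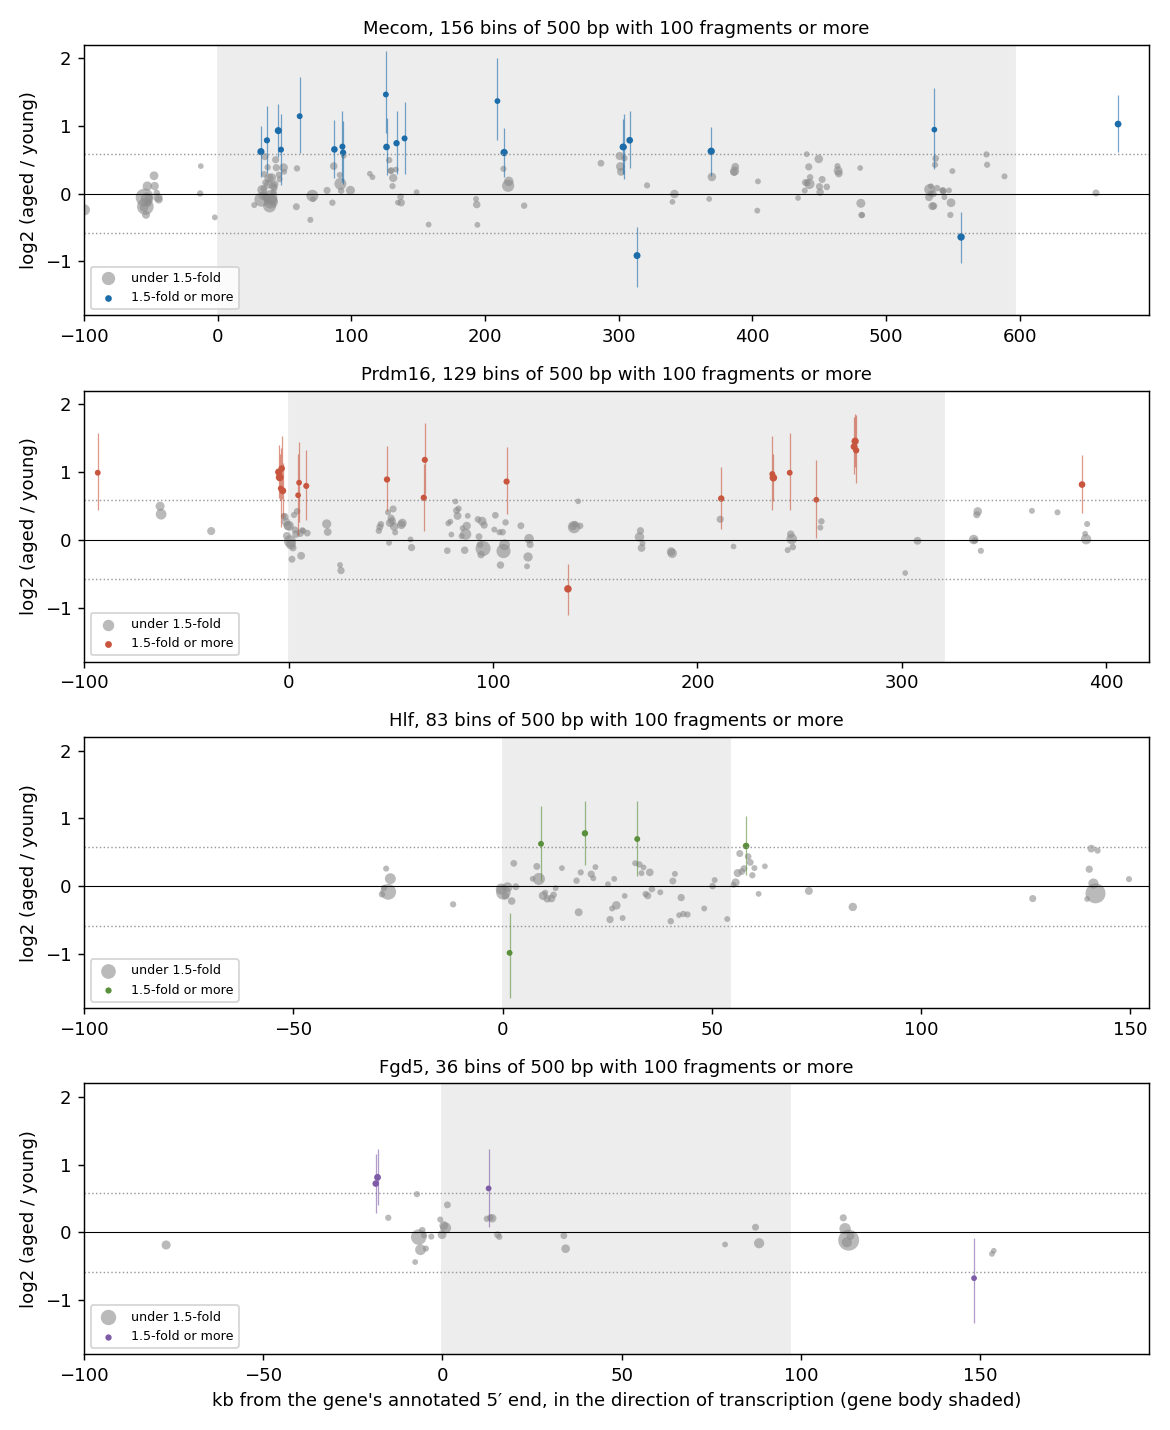
Log2 ratio of aged over young for every 500-bp bin with at least 100 fragments, by distance in kb from the annotated 5′ end of each gene in the direction of transcription, with the gene body shaded. Point area grows with the number of fragments, dotted lines mark 1.5-fold, and coloured bins past it carry exact binomial 95% intervals. The largest points lie near 0 in all 4 windows, and the coloured bins are mostly small points above the upper line in Mecom and Prdm16.

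**Figure D3:**
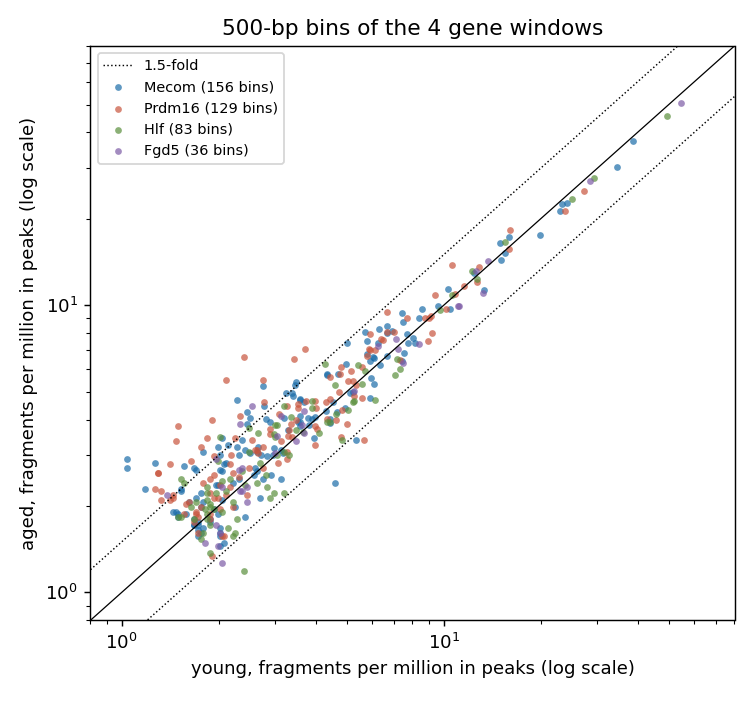
Level of the same 404 bins in young (horizontal) and aged (vertical) HSCs, in FPM on log scales, coloured by gene, with the line of equal level and dotted lines at 1.5-fold. The bins above 20 FPM follow the line of equal level for all 4 genes, and the spread widens below about 5 FPM.

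In Prdm16 the element with the highest ratio lay deep in the gene. Its bin was at chr4:154359501-154360000, 277.1 kb inside the gene in an intron, with 83 young and 173 aged fragments (2.39 and 6.61 FPM), a 2.74-fold difference and a log2 ratio of 1.46 with an interval from 1.08 to 1.86. It was the middle of 3 adjoining gained bins (chr4:154359001-154360500) that together held 161 young and 314 aged fragments, with a ratio of 1.37 and an interval from 1.09 to 1.65. The fragments came from 154 young and 299 aged cells with at most 2 in any cell. Without cells marked as doublets the ratio was 1.39, and in short fragments it was 1.44 (1.06 to 1.85). Both use a part of the fragments by which the stretch was chosen, so neither is a separate comparison of the ages. A second stretch, 5 adjoining gained bins at chr4:154639501-154642000, lay upstream of the Prdm16 start over an exon and an intron of the neighbouring gene Gm13111. It held 325 young and 468 aged fragments (9.37 and 17.9 FPM), a ratio of 0.93 with an interval from 0.72 to 1.14. Counted over 5 kb on either side of the start, which takes in most of this stretch, the Prdm16 promoter ratio was 0.23 (0.15 to 0.31) in place of 0.06. All 14 bins of the upstream flank had ratios above 0, and of the 6 gained there 5 were this stretch, against 9.08% gained over the autosomes. The upstream flank of Mecom had 6 of 17 bins above 0 and none gained, with a ratio of -0.09 (-0.15 to -0.03). Its downstream flank, with 928 young and 913 aged fragments but only 2 kept bins, had a ratio of 0.38 (0.25 to 0.52). Bins above 0 were 9 of 11 downstream of Prdm16, 17 of 23 downstream of Hlf and 2 of 7 upstream of Hlf. Around Fgd5 they were 6 of 14 upstream, with 2 gained, and 2 of 8 downstream, with none gained and 1 lost. The median ratio over all autosomal bins was itself above 0, at 0.04, and the autosomal share above 0 was not counted. The other Prdm16 bins named for a high ratio were in an intron at chr4:154570001-154570500, with 51 young and 88 aged fragments and a ratio of 1.18 (0.68 to 1.72), and within the upstream stretch at chr4:154640001-154640500, 3.38 kb from the start, with 66 young and 104 aged fragments and a ratio of 1.05 (0.60 to 1.53).

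A single Prdm16 bin was lost, at chr4:154500001-154500500 in an intron 136.6 kb inside the gene. It held 196 young and 89 aged fragments (5.65 and 3.40 FPM), a ratio of -0.72 with an interval from -1.11 to -0.36, and a ratio of -0.97 (-1.49 to -0.50) in short fragments. Bins named next for a low ratio, at chr4:154335001-154335500 over an exon (66 young and 35 aged fragments) and chr4:154611001-154611500 in an intron (166 and 91), had ratios of -0.49 and -0.45 and were under 1.5-fold. The most accessible bins of the window, in introns at chr4:154541501-154542000 (949 young and 655 aged fragments) and chr4:154531501-154532000 (827 and 556), had ratios of -0.13 (-0.27 to 0.02) and -0.17 (-0.32 to -0.0098). They lie 95.1 and 105.1 kb inside the gene, and the first was 27.4 FPM in young HSCs. The third most accessible, chr4:154497001-154497500 in an intron, held 556 and 478 fragments, and its ratio of 0.19 had an interval from 0.0087 to 0.37. Over the autosomes, bins with 500 fragments or more had a median ratio of -0.06. The 300 bases around the densest cut sites of the gained, the lost and the most accessible intronic element are given below on the plus strand of GRCm38, the build mm10 names, with matches to 12 short motifs of blood transcription factors in capitals.
Prdm16 gained element, chr4:154359822-154360121: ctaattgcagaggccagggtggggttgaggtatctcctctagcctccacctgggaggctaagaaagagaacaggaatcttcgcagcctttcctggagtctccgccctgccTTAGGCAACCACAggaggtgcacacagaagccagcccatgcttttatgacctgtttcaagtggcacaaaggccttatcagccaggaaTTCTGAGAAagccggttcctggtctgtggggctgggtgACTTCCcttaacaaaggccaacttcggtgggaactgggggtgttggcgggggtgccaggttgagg
Prdm16 lost element, chr4:154500284-154500583: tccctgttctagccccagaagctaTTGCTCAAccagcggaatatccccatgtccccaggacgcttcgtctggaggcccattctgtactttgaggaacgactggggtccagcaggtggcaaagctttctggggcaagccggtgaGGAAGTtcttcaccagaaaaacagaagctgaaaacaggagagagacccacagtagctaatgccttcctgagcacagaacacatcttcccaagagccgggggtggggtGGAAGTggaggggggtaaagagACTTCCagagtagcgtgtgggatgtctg
Prdm16 most accessible intronic element, chr4:154541697-154541996: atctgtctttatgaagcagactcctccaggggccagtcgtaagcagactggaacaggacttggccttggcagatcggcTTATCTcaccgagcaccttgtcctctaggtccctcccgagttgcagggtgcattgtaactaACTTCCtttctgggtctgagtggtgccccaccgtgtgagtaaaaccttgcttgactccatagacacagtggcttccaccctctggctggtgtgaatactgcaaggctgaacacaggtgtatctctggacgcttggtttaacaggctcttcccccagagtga
The gained element held 78 young and 178 aged fragments in these 300 bases (log2 ratio 1.59) and matched the RUNX, ETS, CEBP and STAT letters. The lost element matched the ETS letters at 3 places and the CEBP letters at 1, and the most accessible element matched GATA and ETS.

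In Mecom most gained bins lay toward the 5′ end of the gene, within 139.8 kb of the outermost start, where many of the kept bins lay too. Of the 20 gained bins of Mecom 19 lay in the gene body, in introns, and 1 in the flank beyond the 3′ end. The highest ratio was at chr3:30422001-30422500, 125.8 kb inside the gene, with 36 young and 76 aged fragments (1.04 and 2.90 FPM), a 2.76-fold difference and a log2 ratio of 1.46 with an interval from 0.89 to 2.10. Its densest cut sites lay at its edge, in a stretch of which 41.3% is masked as repeat, and the 300 bases around them had a lower ratio, 0.84 (0.43 to 1.26). With the bin beside it the element held 109 young and 142 aged fragments, with a ratio of 0.78 and an interval from 0.42 to 1.16. The next, at chr3:30338501-30339000, held 36 young and 71 aged fragments, with a ratio of 1.37 and an interval from 0.79 to 2.01. The third, at chr3:30486501-30487000, held 44 young and 74 aged fragments, with a ratio of 1.14 and an interval from 0.60 to 1.73. It lies 23.1 kb downstream of the long-form start. Fragments of these bins came from 34 to 42 young and 70 to 76 aged cells. In short fragments their ratios were 1.20, 1.85 and 1.30, each with an interval above 0. Short fragments are a part of those by which the bins were chosen, so these intervals are not a separate comparison of the ages.

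The lowest Mecom ratio was at chr3:30234001-30234500, in an intron 4.07 kb downstream of the annotated start at 30238319. It held 159 young and 63 aged fragments (4.59 and 2.41 FPM), a ratio of -0.92 with an interval from -1.37 to -0.50. Without marked doublets the ratio was -0.89, and in short fragments it was -1.17. The other lost bin, at chr3:29991501-29992000 in an intron 5.95 kb downstream of the start at 29997702, held 185 young and 89 aged fragments, with a ratio of -0.64 and an interval from -1.03 to -0.28. In short fragments its ratio was -0.51 (-0.96 to -0.10), under 1.5-fold. The third named for a low ratio, chr3:30353501-30354000 with 72 young and 39 aged fragments, had an interval from -1.08 to 0.10 and was under 1.5-fold. The most accessible bins were at the promoter of the neighbouring gene Mynn (1342 young and 973 aged fragments), at chr3:30515001-30515500, 5.43 kb upstream of the long-form start (838 and 595), and at chr3:30508501-30509000, 1.07 kb downstream of it (810 and 589). Their ratios lay between -0.09 and -0.05. The sequences of a gained and of the most reduced element follow in the same form, the gained one being that whose 300 bases had the highest ratio of their own.
Mecom gained element, chr3:30338660-30338959: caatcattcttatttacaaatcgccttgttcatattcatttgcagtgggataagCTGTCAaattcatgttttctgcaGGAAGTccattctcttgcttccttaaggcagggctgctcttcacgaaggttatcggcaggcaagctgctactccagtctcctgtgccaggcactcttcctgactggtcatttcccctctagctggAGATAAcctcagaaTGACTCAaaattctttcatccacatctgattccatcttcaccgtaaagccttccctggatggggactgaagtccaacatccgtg
Mecom lost element, chr3:30234047-30234346: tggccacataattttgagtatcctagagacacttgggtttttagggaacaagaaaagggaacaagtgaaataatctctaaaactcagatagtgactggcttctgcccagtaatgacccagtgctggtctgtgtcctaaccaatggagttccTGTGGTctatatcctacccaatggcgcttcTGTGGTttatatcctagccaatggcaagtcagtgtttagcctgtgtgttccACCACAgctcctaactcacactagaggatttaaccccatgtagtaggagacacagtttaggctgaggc
The gained element held 27 young and 58 aged fragments in these bases (log2 ratio 1.48, 0.83 to 2.23) and matched the AP-1, GATA, ETS and MEIS letters at 1 place each. The lost element held 153 young and 57 aged fragments (interval of the log2 ratio -1.48 to -0.57) and matched the RUNX letters at 3 places.

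The Hlf window had few elements past 1.5-fold. The highest ratio was at chr11:90371001-90371500 in an intron 19.6 kb inside the gene, with 70 young and 91 aged fragments (2.02 and 3.48 FPM), a log2 ratio of 0.78 and an interval from 0.32 to 1.26. In short fragments it was 0.42, with an interval that included 0 (-0.26 to 1.10). The other bins named for a high ratio, at chr11:90358501-90359000 in an intron (53 young and 65 aged fragments) and at chr11:90381501-90382000 over an exon (54 and 63), had ratios of 0.70 and 0.62. Neither bin overlapped a peak, and in short fragments both intervals included 0 (-0.25 to 1.67 and -0.73 to 2.52). The 300 bases around their densest cut sites had ratios of 0.72 (0.16 to 1.31) and 0.17 (-0.46 to 0.77). The lowest ratio was at chr11:90389001-90389500 in an intron 1.65 kb inside the gene. It held 83 young and 31 aged fragments, with a ratio of -0.99 (-1.66 to -0.40), and of -1.09 (-2.37 to -0.12) in short fragments. Its densest cut sites lay at its edge, and the 300 bases around them held 144 young and 118 aged fragments (0.12, -0.24 to 0.48). Bins at chr11:90350501-90351000 and chr11:90365001-90365500, both intronic, had ratios of -0.52 and -0.49, intervals below 0, and were under 1.5-fold. The most accessible bins were at the promoter of Mmd 141.6 kb away (1710 young and 1198 aged fragments), at chr11:90418001-90418500, 27.4 kb upstream of Hlf between genes (1018 and 724), and at the Hlf start (865 and 612). The upstream element stood at 29.4 FPM in young and 27.7 FPM in aged HSCs, and the bin at the Hlf start at 24.9 and 23.4 FPM.

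The gained intronic element of Hlf and the 250 bases before the Hlf start in RefSeq, the latter on the minus strand as transcribed, were as follows.
Hlf gained element, chr11:90371035-90371334: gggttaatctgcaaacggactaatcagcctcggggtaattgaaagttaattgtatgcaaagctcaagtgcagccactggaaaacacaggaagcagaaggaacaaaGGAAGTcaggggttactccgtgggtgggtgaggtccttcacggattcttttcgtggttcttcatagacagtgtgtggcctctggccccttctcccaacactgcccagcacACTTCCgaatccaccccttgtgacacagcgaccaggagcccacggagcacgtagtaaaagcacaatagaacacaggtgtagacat
Hlf upstream sequence, chr11:90390918-90391167: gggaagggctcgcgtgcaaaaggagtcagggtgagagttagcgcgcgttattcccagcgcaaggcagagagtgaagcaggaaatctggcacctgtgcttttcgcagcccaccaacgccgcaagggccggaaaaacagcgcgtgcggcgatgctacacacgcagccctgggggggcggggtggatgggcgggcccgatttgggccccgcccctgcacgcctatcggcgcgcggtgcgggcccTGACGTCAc
The intronic element matched the ETS letters at 2 places. The sequence before the start holds the cyclic AMP response element letters in its last bases, next to the start, letters found around the densest cut sites of 0.664% of all peaks.

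The Fgd5 window held the fewest kept bins, and its gained bins formed 1 element outside the gene and 1 inside it. The element outside, 2 adjoining bins at chr6:91960001-91961000 between genes, held 143 young and 178 aged fragments (4.12 and 6.80 FPM), a log2 ratio of 0.72 with an interval from 0.40 to 1.05. Its second bin, 18.1 kb upstream of the start, had the highest ratio of the window, with 88 young and 117 aged fragments and a ratio of 0.81 (0.41 to 1.23). In short fragments this bin had a ratio of 0.70 (-0.02 to 1.43), and the 2 bins together 0.72 (0.22 to 1.24). The bin inside, chr6:91991501-91992000 in an intron, held 48 young and 57 aged fragments and a ratio of 0.65 (0.07 to 1.24), and without marked doublets its interval included 0 (-0.07 to 1.14). The lost bin, chr6:92127001-92127500 with 71 young and 33 aged fragments (-0.68, -1.34 to -0.08), lies in an intron of the neighbouring gene Nr2c2, and the next for a low ratio there, chr6:92132001-92132500 (70 and 42), had an interval from -0.92 to 0.24. In short fragments the lost bin had a ratio of -0.37, with an interval that included 0 (-1.22 to 0.38). Bins 7.13 and 7.63 kb upstream had ratios of opposite sign, both under 1.5-fold. The first, chr6:91971501-91972000, held 68 young and 76 aged fragments (0.56, 0.08 to 1.06), and without marked doublets its interval included 0 (-0.13 to 0.94). The second, chr6:91971001-91971500, held 69 and 38 (-0.44, -1.07 to 0.14), in a stretch of which 88.3% is masked as repeat. In short fragments the ratios of these bins were 0.03 (-1.21 to 1.15) and -1.28 (-2.37 to -0.45). Next to them, chr6:91972001-91972500 was the most accessible bin of the window outside the Nr2c2 promoter, with 988 young and 710 aged fragments (28.5 and 27.1 FPM), a ratio of -0.07 and an interval from -0.21 to 0.07. It held over 2 times the fragments of the most open bin near the Fgd5 start, which had 437 young and 345 aged fragments. Its sequence is shown because it is the main open element beside Fgd5 at both ages.
Fgd5 upstream element, chr6:91972233-91972532: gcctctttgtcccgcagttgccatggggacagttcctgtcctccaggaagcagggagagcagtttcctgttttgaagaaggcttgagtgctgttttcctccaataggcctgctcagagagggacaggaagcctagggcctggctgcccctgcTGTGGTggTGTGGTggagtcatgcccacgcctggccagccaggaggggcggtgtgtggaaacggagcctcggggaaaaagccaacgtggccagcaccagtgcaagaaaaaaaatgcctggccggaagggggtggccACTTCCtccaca
These 300 bases held 919 young and 615 aged fragments, with a ratio of -0.17 and an interval from -0.32 to -0.02, and matched the RUNX letters at 2 places and the ETS letters at 1.

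The motif letters were searched on both strands in the 300 bases around the densest cut sites of the 12 bins named for a high ratio, the 12 for a low ratio and the 12 most accessible. RUNX (TGTGGT) was found in 4 of the 12 with high and 3 of the 12 with low ratios, and in 27.9% of all peaks. ETS (GGAAGT) was found in 4 of each, and in 33.7% of all peaks. MEIS (TGACAG) was found in 4 and 3, and in 20.6% of all peaks, and AP-1 (TGANTCA) in 2 of each, and in 12.3% of all peaks. The letters of STAT factors (TTCNNNGAA) and of PBX-HOX pairs (TGATTNAT) were found in 1 element each with a high ratio and in none with a low ratio, and in 9.25% and 4.18% of all peaks. The GATA letters were likewise found in 1 and in none, and in 14.1% of all peaks, AGATAA being searched. CEBP (TTGCNNAA) was found in 1 and 2, and MYB (GGCNGTT) in 1 of each, and in 12.4% and 12.2% of all peaks. The letters bound by PAR bZIP factors such as HLF (TTACGTAA) and the EVI1 letters (GACAAGATA) were in none of the 36 windows, and in 0.101% and 0.0933% of all peaks. A match is only a match of letters, and counts out of 12 elements are too few to be set against the share of all peaks.

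Peaks were counted in the same way. Of 97403 peaks with at least 100 fragments, 9.61% were at least 1.5-fold higher and 4.01% at least 1.5-fold lower in aged HSCs. The Prdm16 window had 11 of 65 higher and 3 lower, with a median log2 ratio of 0.17. The Mecom window had 11 of 78 higher and 2 lower, with a median of 0.06, the Hlf window 1 of 31 higher and 2 lower, with a median of -0.08, and the Fgd5 window 1 of 17 higher and none lower, with a median of 0.0016. The median over all peaks was 0.0028. As shares, 16.9% of the Prdm16 and 14.1% of the Mecom peaks were higher, and 3.23% of the Hlf and 5.88% of the Fgd5 peaks. Lower peaks made up 4.62% in Prdm16, 6.45% in Hlf and 2.56% in Mecom, counts too small to be read against the background.

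Single cells were compared after each was thinned to 3000 fragments in peaks, which left 4789 young and 3271 aged cells. A fragment in the Mecom body was seen in 89.6% of young cells (88.7 to 90.4) and 92.2% of aged cells (91.2 to 93.1). The share was 79.5% (78.3 to 80.6) and 83.9% (82.6 to 85.1) for the Prdm16 body. In both genes the intervals of the 2 ages, which cover counting error in 1 library each, were apart. For the Hlf body the shares were 44.3% and 43.7%, and for the Fgd5 body 26.6% and 26.6%, with overlapping intervals. Cd3e, a T cell gene that HSCs should keep closed, had a fragment in its body in 1.15% of young and 1.28% of aged cells, and Kit, the receptor used in the sort, in 38.6% and 39.5%. These shares follow the length of each gene as well as its accessibility. Thinning fixed the fragments in peaks and kept each cell's other fragments at the same rate. Before it, 69.25% of young and 67.7% of aged fragments lay in peaks, so fragments outside peaks were not made equal. The part of this in the gene body shares was not tested. Without thinning the shares were 98.4% and 98.9% for Mecom and 96.0% and 96.6% for Prdm16.

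At the promoters, a fragment was seen in 9.75% of young and 10.0% of aged cells for Prdm16, 10.8% and 10.3% for Hlf, 6.83% and 6.21% for Fgd5, and 9.31% and 9.81% for the long-form start of Mecom. The intervals of the ages overlapped at each of them, and Cd3e had 0.271% and 0.275%. The outermost Mecom start had 0.188% and 0.214%, at the level of Cd3e. Fragments in all 4 gene bodies were seen together in 8.56% of young and 8.47% of aged cells, and in none of the 4 in 0.835% (0.597 to 1.14) and 0.428% (0.234 to 0.717). The variance of fragments per cell was close to the mean for each of the 4 gene bodies, between 0.991 and 1.13 times it, and the most in any thinned cell was 20, in the Mecom body of an aged cell. The gained Prdm16 stretch at 277.1 kb had a fragment in 1.38% of young cells (1.07 to 1.75) and 4.0% of aged cells (3.36 to 4.73), and the stretch upstream of its start in 2.65% (2.22 to 3.15) and 5.20% (4.46 to 6.01). The lost Mecom bin at chr3:30234001-30234500 had a fragment in 1.44% of young cells (1.12 to 1.82) and 0.611% of aged cells (0.374 to 0.943). These elements were chosen by their ratio in the same fragments, so their shares of cells are not a separate comparison of the ages.

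**Figure D4:**
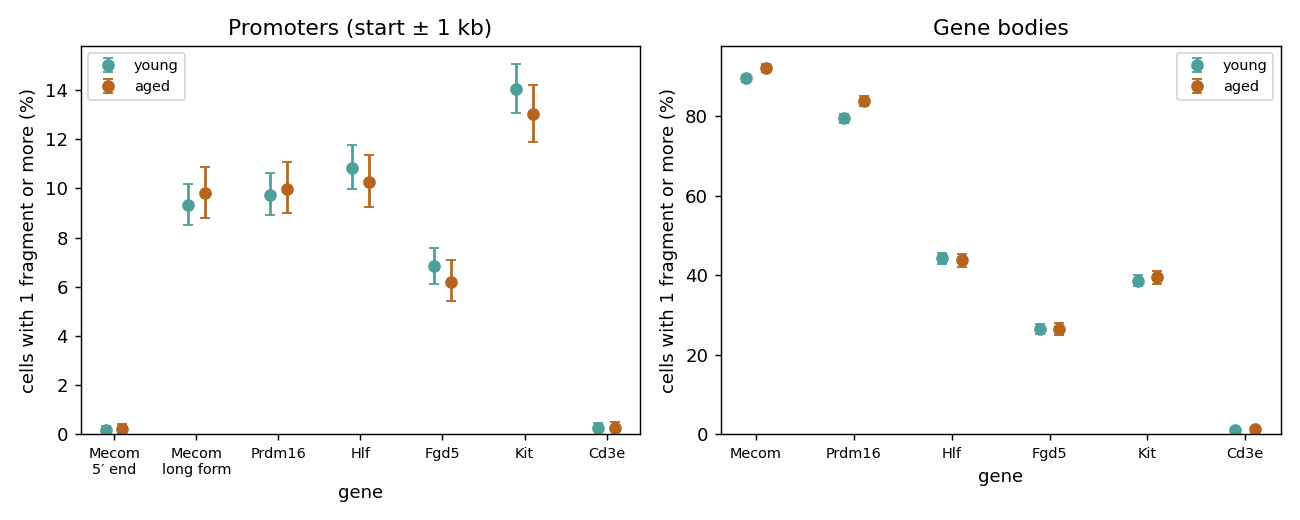
Share of cells with at least 1 fragment at promoters (left) and over gene bodies (right) after thinning each cell to 3000 fragments in peaks, for young (green) and aged (brown) HSCs, with exact binomial 95% intervals. Kit, a surface receptor of HSCs, and Cd3e, a T cell gene, are shown beside the 4 genes. The intervals of the ages overlap at every promoter, and the bodies of Mecom and Prdm16 are higher in aged cells.

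Related genes were set beside the 4 as whole lists. Among 28 further regulators of HSC self-renewal, none of the 27 tested promoters and none of the 28 gene bodies was past 1.5-fold in either direction, and the median log2 ratios were -0.09 and 0.02. With 3.37% of all promoters and 2.95% of all gene bodies past 1.5-fold higher, and fewer lower, lists of this size or smaller with none past it are near the background. The extremes of the list at the promoter were Lmo2, a bridging subunit of a stem cell transcription complex, at 0.49 (0.18 to 0.80), and Hmga2, a chromatin protein abundant in fetal HSCs, at -0.33 (-0.50 to -0.17). Among 13 other PR domain genes, the family of Mecom and Prdm16, none was past 1.5-fold, and the medians were -0.02 at promoters and 0.10 over bodies. The extremes were Prdm13 at 0.44 and Prdm8 at -0.16. Of the relatives of Hlf, Dbp and Tef had promoter ratios of -0.14 and -0.23, and Nfil3, a repressor that binds the same sites, had 0.15. Of the 5 other FGD genes none was past 1.5-fold, with promoter ratios from -0.12 for Fgd6 to 0.27 for Fgd3.

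**Figure D5:**
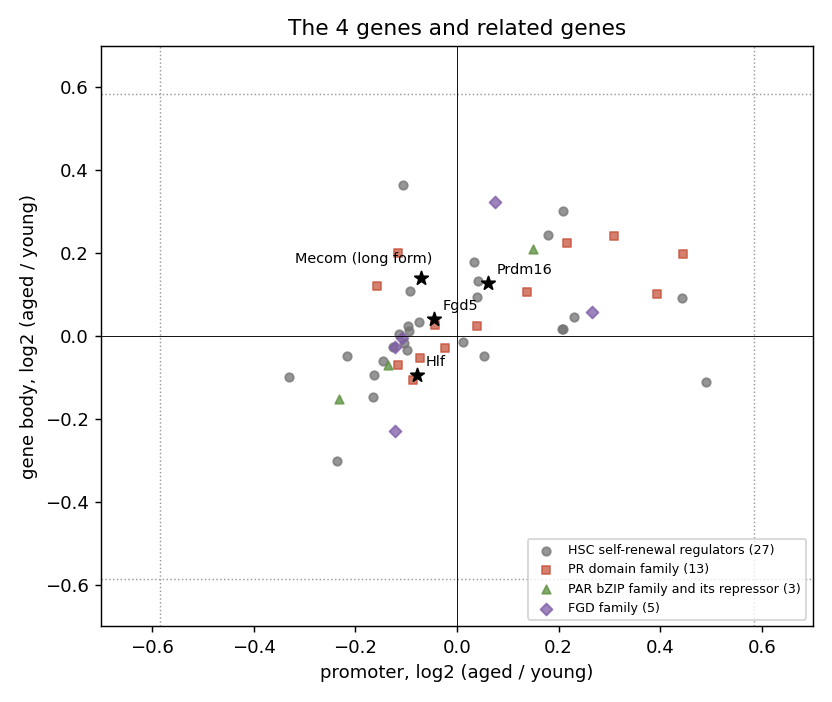
Log2 ratio of aged over young at the promoter (horizontal) and over the gene body (vertical) for related genes, by list, and for the 4 genes (stars), with the long-form start used for Mecom. Dotted lines mark 1.5-fold, which no gene passes. The 4 genes lie within the cloud of related genes.

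By promoter level in the 2 libraries, the tested promoters nearest to each gene were those of Rab32 and Fam98b for Prdm16, Fip1l1 and Gm17606 for Hlf, and Lbx1 and Cpxm1 for Fgd5, all within 0.0063 on the log2 scale among 15024. With 2 libraries this likeness is of level only. The outermost start of Mecom lay below the minimum of 100 fragments that all of these promoters passed, so no likeness is given for it.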

How the data were processed

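Per the labels and the study's methods, single nuclei were profiled with the 10x Chromium single-cell ATAC kit, 1 library for each age, and the authors processed the reads with Cell Ranger ATAC against mm10 and analysed them with Signac. The deposited fragment lists give each unique fragment with its barcode, and the deposited barcode tables give counts of fragments per barcode, including those in peaks, and the call of each barcode as a cell. Cells called by the authors with 3000 to 20000 fragments in peaks were kept, and the authors' other limits were tried as an alternative. Annotation was GENCODE M21 on GRCm38, and promoter sequence was that of RefSeq on GRCm38.p6.

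Peaks were called on the kept cells of each library (151-bp windows of cut sites against a 10000-bp local background, q at most 0.001) and combined. Each fragment with an end inside a region was counted 1 time there. The total in combined peaks of each library set its scale, and ratios took a pseudocount of 1 fragment. Regions with at least 100 fragments over both libraries were kept, and 1.5-fold was the limit for gained and lost. Intervals are exact Clopper-Pearson 95% intervals of the share of fragments or cells. Fragments of 1 cell and cells of 1 library are not independent samples, so the intervals cover counting error only. Doublets were marked from loci with at least 3 overlapping fragments (q at most 0.01) and kept. For shares of cells, each cell was thinned to 3000 in-peak fragments, which left out 98 young and 134 aged cells.

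In each window the 3 bins with the highest ratio, the 3 with the lowest and the 3 with the most fragments were named, leaving out any that start within 1000 bp of one already named. Values of named bins in short fragments or without marked doublets use a part of the fragments that chose them. They are not a separate comparison of the ages. Related genes were named if past 1.5-fold or at an extreme of their list, and for each member promoter with at least 100 fragments the 2 nearest in level. The sequences printed were chosen after their values were seen. Some items are not reported here. The genes, the lists of related genes and markers and the tests were chosen with earlier results of these data known. Alternatives to the scaling, cell and fragment filters, minimum, pseudocount, bin grid and fold were computed. The counting steps were tested on simulated data. Python 3.11.15, numpy 2.4.6, pandas 2.3.3 and scipy 1.17.1 were used.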

Additional observations from a re-analysis of the deposited data

How the results depend on the processing

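With 1 library for each age no setting gives a test, and a value is said to move here when it left its own counting interval, or for a count when it changed by over 1.5 times. The Prdm16 promoter ratio was 0.23 with 5 kb on either side. With short fragments alone, the Fgd5 promoter ratio was -0.34, and the gene body ratios were 0.088 for Mecom, 0.075 for Prdm16 and -0.064 for Fgd5. The median of all gene bodies was then -0.042 in place of -0.022, and that of all promoters -0.044 in place of -0.054. Scaled to all fragments of the kept cells, the gene body ratios were 0.11 for Mecom and 0.095 for Prdm16, and the median of all gene bodies moved with them, from -0.022 to -0.055. Without the peaks in them they were 0.20 for Mecom, 0.21 for Prdm16 and 0.16 for Fgd5. The 49 gained and 5 lost bins became 15 gained with short fragments alone, 78 and 22 with each cut site counted, 9 and 3 after thinning, 111 and 20 with a minimum of 50 fragments, 13 and 3 with a minimum of 200, 970 and 568 with no minimum, and 10 and 0 at 2-fold. Without marked doublets 3 bins were lost (0.838% against 2.87% over the autosomes), and 9 on a grid shifted by 250 bp (2.22% against 2.96%). The bins at the minimum numbered 187 with short fragments and 148 after thinning. The cause of these changes was not tested. As shares, gained bins were 8.02% in the windows and 6.21% over the autosomes with short fragments. They were 6.08% and 5.11% after thinning, and 26.4% and 32.2% with no minimum. With each cut site counted they were 13.4% and 12.0%, with a minimum of 50 15.1% and 13.3%, and with a minimum of 200 6.5% and 4.82%. Without marked doublets they were 10.9% and 8.67%, on the shifted grid 12.3% and 9.1%, and at 2-fold 2.48% and 2.62%. Lost bins were 3.78% and 4.81% with each cut site counted, 2.72% and 5.02% with a minimum of 50, and 15.5% and 25.6% with no minimum. Of the 49 gained bins, 36 held under 200 fragments over both libraries, where counting intervals are wide. No paired analysis was possible because each age has 1 library.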
